A study of Danio rerio with 4 samples.

Results

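The genes described here encode the translation initiation factors (eIFs) and elongation factors (eEFs) of the zebrafish, with the proteins that bind or modify them. They were taken by name: every row of the count table whose symbol, in any case, begins with eif and a digit or with eef1 or eef2, leaving out the eif2ak kinases and eef2k. This gave 79 of the 31952 genes in the table, of which 62 carried an eif name, 14 were elongation factors or their partners, and 3 were methyltransferases that act on eEF1A. The rule used no measured value. Of the 79 genes, 75 had enough counts to be tested and 4 did not.

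Initiation factors bring the initiator tRNA, the small ribosomal subunit and the messenger RNA together, and elongation factors then deliver each aminoacyl-tRNA and move the ribosome along the message. The cap-binding protein eIF4E, the scaffold eIF4G and the helicase eIF4A recruit capped messages, and the 4E-binding proteins (4E-BPs) block this step until they are phosphorylated by the TOR kinase. In mammals the messages of most ribosomal proteins, and of elongation factors such as eEF1A and eEF2, carry a pyrimidine tract at their start through which the TOR kinase controls their translation. Many of these factors have more than 1 gene in the zebrafish.

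RNA was measured in nuclei pulled down from the heads of larvae at 5 dpf. NRas+ larvae (2 libraries) had been kept in 1 µM mifepristone from 24 hpf, whereas control larvae (2 libraries) had no mifepristone. All larvae came from 1 cross. One parent line, ox128, holds mpo:BirA-Citrine together with bactin:Avi-Cerulean-Rangap, and the other, ox130, holds kita:LexPR-Cerulean together with PcrysB:ECFP-LexOP:mCherry-NRas. By this parentage the controls can carry the oncogene transgene as well, without the drug that turns it on. The paper states that embryos with mCherry-NRas in melanocytes were picked for profiling. It does not say how the sequenced controls were picked. The mpo promoter drives the biotin ligase in neutrophils, where it tags the nuclear envelope for the pull-down, and the kita promoter drives the mifepristone-dependent activator LexPR in melanocytes. The study's own list of lines gives ox130 to a line with the mitfa promoter in place of kita. Heads of many larvae were pooled for each library, and drug and oncogene cannot be told apart, since only NRas+ larvae had both. Libraries that share a group are labelled as separate samples, but no label says that they came from separate clutches. The study's methods describe biological replicates with both conditions in each experiment, and more of them than the labels list, without tying a library to an experiment. The p-values measure only the spread between these libraries.

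Total counts were 42365244 and 40450112 in the NRas+ libraries and 30619195 and 38915102 in the control libraries. Skeletal muscle markers took 37.9% and 38.3% of the counts in NRas+ and 26.9% and 18.9% in the controls, and 31 of the 34 markers tested had a positive log2 fold change. Neutrophil markers, on the other hand, took 0.00730% and 0.00905% of the counts in NRas+ and 0.00492% and 0.0104% in the controls. These shares overlapped between groups. Of the 12 tested, out of 14 found by symbol, 10 had a positive log2 fold change. The list also held mpx (mpo in the labels), lect2l and cpa5, which no symbol matched, so that the shares leave them out. Among the markers found, lyz (ENSDARG00000057789), the lysozyme of neutrophils, had 10.9 and 12.6 CPM in NRas+ and 12.6 and 3.0 CPM in the controls. The granulocyte receptor gene CSF3R had at most 12 counts in any library, whereas srgn had 626 and 922 counts in NRas+ and 481 and 1992 in the controls. Of the 12 neutrophil markers tested, both NRas+ libraries were above both controls in CPM in 6 (20.5% of all genes). Both were below in 0 (21.8% of all genes), and 6 overlapped. Epidermis markers took 0.594% and 0.276% in NRas+ and 0.437% and 0.335% in the controls, and neuron and macrophage markers less than that. CPM here is the count scaled to a common library size with TMM, which gave factors of 0.861 and 0.941 to the NRas+ libraries and 0.878 and 1.41 to the controls, so that control 2 stands apart in its composition. Fewer cells of a type and less RNA per cell cannot be told apart in such pooled samples, and the part of muscle RNA in the values below was not tested.

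No translation factor passed an adjusted p of 0.05 with edgeR (quasi-likelihood test) over all 20099 genes tested, of which 0.169% passed, 0.129% higher and 0.0398% lower. The smallest adjusted p among the 75 genes was 0.264. At an unadjusted p under 0.05, 4 genes were higher and 3 lower in NRas+, or 9.33% of the 75, against 11.3% of all genes tested (5.16% higher and 6.11% lower). With DESeq2, 1 gene was higher and 0 lower at an adjusted p under 0.05, out of 71 with an adjusted p, where 3.32% of all genes passed (1.78% higher and 1.54% lower). At an unadjusted p under 0.05 DESeq2 gave 7 genes, where 11.2% of all genes passed (5.32% higher and 5.9% lower). In 35 genes, or 46.7%, the groups did not overlap in CPM, as in 42.3% of all genes. In 23 genes (30.7%) both NRas+ libraries were higher, with a background of 20.5%, and in 12 genes (16%) both were lower, with a background of 21.8%. Of the 75 genes, 38 had a positive log2 fold change (50.7%, against 47.9% of all genes), with a median of 0.02 against -0.04 over all genes tested. These values rest on TMM scaling. With library size alone, 20 of the 75 had a positive value, and the median over all genes was -0.40. Overlap between groups was not counted over all genes without TMM.

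**Figure D1:**
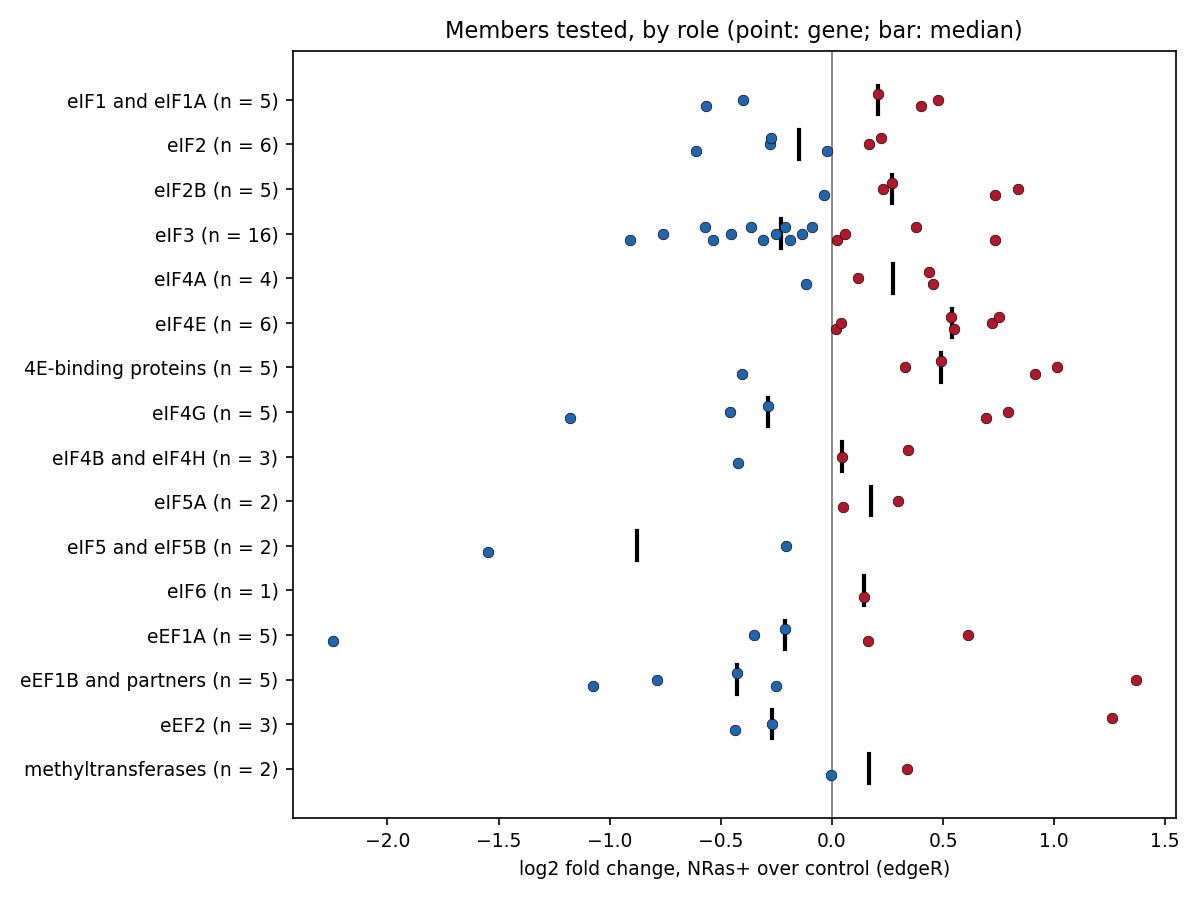
Log2 fold change of NRas+ over control (x axis, edgeR) for each of the 75 genes tested, in rows by role; points are genes, red above 0 and blue below it, and black bars are medians. The 6 eIF4E genes all lie above 0, 12 of the 16 eIF3 genes lie below it, and no gene passed an adjusted p of 0.05.

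Among the elongation factors, which took 71.5% and 70.7% of all translation factor counts in NRas+ and 74.7% and 73.8% in the controls, the main eEF1A and eEF2 genes differed by less than their standard error. The gene eef1a1l1 (ENSDARG00000020850), which encodes the factor that delivers aminoacyl-tRNA to the ribosome, had 8039 and 7101 CPM in NRas+, against 11444 and 7844 CPM in the controls. In these TMM-scaled CPM the groups overlapped, and its log2 fold change was -0.35 with a standard error of 0.88 (edgeR, adjusted p = 0.925). The overlap rested on the scaling. Raw counts were 293133 and 270147 in NRas+ and 307515 and 428516 in the controls, which had smaller totals. Per total count the groups thus did not overlap, and with library size alone the log2 fold change was -0.63. The gene eef1a1l1 made up 99.9% and 99.8% of all eEF1A counts in NRas+ and 99.9% and 99.8% in the controls. The other 4 eEF1A genes together thus held less than 0.3% in every library. The gene eef1a2, whose mammalian counterpart is the form of muscle and neurons, was at 0.823 and 0.789 CPM in NRas+ and at 0.112 and 1.06 CPM in the controls. The genes listed as EEF1A1 lay between 2.88 and 10.1 CPM in NRas+ and between 2.05 and 9.08 CPM in the controls (ENSDARG00000069951 and ENSDARG00000039502). The scarce eef1a1l3 (ENSDARG00000071727) had 20 and 4 counts in NRas+ and 74 and 43 counts in the controls, a log2 fold change of -2.24 with a standard error of 1.32 (edgeR, adjusted p = 0.557). Reads of near-identical eEF1A genes cannot be assigned with certainty, and the counts of the minor ones are therefore uncertain.

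The eEF2 genes, whose product moves the ribosome on by a codon, included the elongation factor gene with the smallest p. The gene listed as EEF2 (ENSDARG00000035256) had 716 and 963 CPM in NRas+, against 410 and 291 CPM in the controls. Both NRas+ libraries were above both controls. The means were 840 ± 175 CPM in NRas+ and 350 ± 84.5 CPM in controls (SD, n = 2 each). The log2 fold change was 1.26 (standard error 0.46), a fold of 2.4, with an unadjusted p = 0.0131 and adjusted p = 0.292 in edgeR's test. DESeq2 gave an adjusted p of 0.0306, the only call among the translation factors. Leaving out any 1 library kept the value between 1.05 and 1.54.

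The main eEF2 gene, eef2b (ENSDARG00000100371), had 3541 and 2793 CPM in NRas+ and 4612 and 3970 CPM in the controls. Its groups did not overlap either, but the log2 fold change of -0.44 was smaller than its standard error of 0.69 (edgeR, adjusted p = 0.865). As a share of all eEF2 counts, which does not depend on how libraries are scaled, EEF2 took 16.8% and 25.6% in NRas+, against 8.15% and 6.81% in the controls. The difference in means was 13.7 percentage points, and 9.30 to 18.1 with 1 library left out. With 2 libraries against 2 an exact permutation test, two-sided, cannot give a p below 0.333, which is the value here. Exact binomial 95% intervals were narrow, from 16.6% to 17.0% in NRas+ 1 for example, and cover counting error only. The tandem genes eef2a.1 and eef2a.2 were scarce, with eef2a.1 at 9.87 and 5.02 CPM in NRas+ and at 9.53 and 8.51 CPM in the controls, and eef2a.2 with 3 and 8 counts in NRas+ and 5 and 33 counts in the controls, too few for a test.

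The eEF1B complex reloads eEF1A with GTP, and 4 of the 5 genes of eEF1B and its partners had a negative log2 fold change. The gene EEF1D (ENSDARG00000030053), for an exchange subunit, had 163 and 154 CPM in NRas+, against 484 and 183 CPM in the controls. Both NRas+ libraries were below both controls, although control 1 alone was far above the other 3 libraries. The log2 fold change was -1.07 with a standard error of 0.45 (edgeR, unadjusted p = 0.028, adjusted p = 0.368). Without control 1 it was -0.20, whereas without control 2 it was -1.59. Its paralog eef1da had 839 and 663 CPM in NRas+ and 1278 and 741 CPM in the controls. The scaffold EEF1G had 1397 and 988 CPM in NRas+ and 2786 and 1328 CPM in the controls, and the exchange subunit EEF1B2 had 771 and 654 CPM in NRas+ and 1049 and 648 CPM in the controls. In all 4 genes control 1 held the highest value, and with TMM scaling their log2 fold changes without it were between -0.20 and 0.15. This too depended on the scaling. Of all raw counts, the 5 genes together took 0.273% and 0.232% in NRas+ and 0.491% and 0.407% in the controls, and the groups did not overlap. The fifth gene, EEF1E1 (ENSDARG00000071774), known in mammals as a part of the complex of aminoacyl-tRNA synthetases, had 3.24 and 5.13 CPM in NRas+ and 1.94 and 1.43 CPM in the controls (edgeR, log2 fold change 1.37 with a standard error of 0.82, adjusted p = 0.57).

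**Figure D2:**
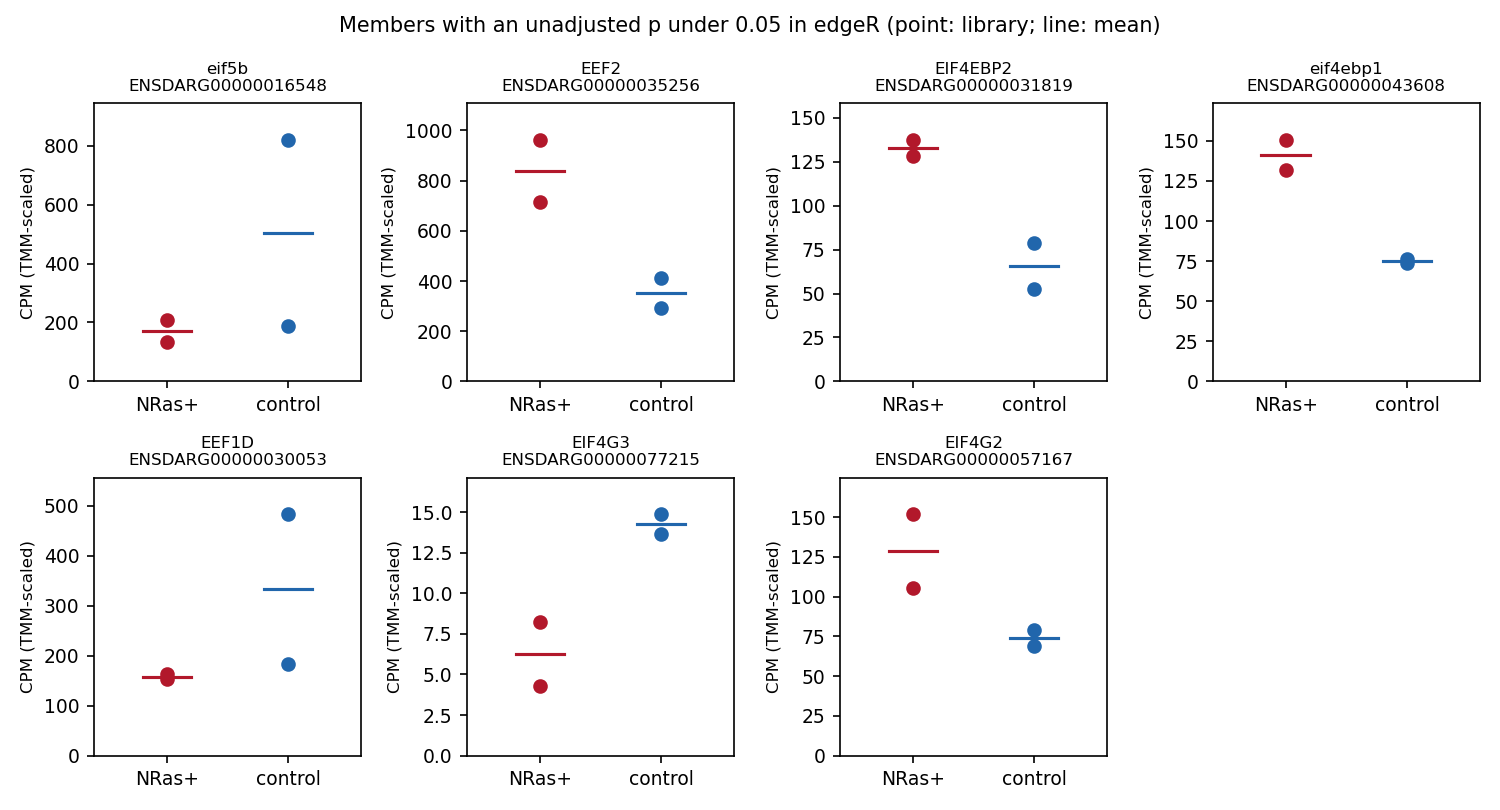
CPM after TMM scaling (y axis, linear, from 0) of the 7 genes with an unadjusted p under 0.05 in edgeR, for NRas+ (red) and control (blue) libraries; each point is a library and each line the mean of 2. The groups do not overlap in 6 of the 7 genes, while in eif5b control 2, at 189 CPM, lies between the NRas+ libraries. Since the genes were picked by p from these same libraries, this count is no separate support. Over all genes tested, the groups do not overlap in 42.3% in TMM-scaled CPM. Per total count, without TMM, the groups do not overlap in eif5b but do overlap in EIF4G2.

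Of the 4 4E-BP genes, which encode the inhibitors of eIF4E, 2 had an unadjusted p under 0.05, both higher in NRas+, where 5.16% of all genes tested were. The gene EIF4EBP2 (ENSDARG00000031819) had 138 and 128 CPM in NRas+, against 52.4 and 78.8 CPM in the controls, a log2 fold change of 1.01 with a standard error of 0.38 (edgeR, unadjusted p = 0.0149, adjusted p = 0.302). The gene eif4ebp1 (ENSDARG00000043608) had 151 and 132 CPM in NRas+, against 76.6 and 73.5 CPM in the controls, a log2 fold change of 0.91 with a standard error of 0.37 (edgeR, unadjusted p = 0.0228, adjusted p = 0.343). In TMM-scaled CPM each NRas+ library was above each control in both genes, by more than the spread within a group. With a library left out their log2 fold changes stayed between 0.77 and 1.36 and between 0.82 and 1.04. With library size alone in place of TMM they were smaller, at 0.61 for EIF4EBP2 and 0.57 for eif4ebp1. The gene EIF4EBP3 (ENSDARG00000041607) had 247 and 230 CPM in NRas+ and 171 and 169 CPM in the controls (log2 fold change 0.49, adjusted p = 0.676 from edgeR). The gene listed as eif4ebp3 (ENSDARG00000054916) had 79.9 and 51.2 CPM in NRas+ and 50.4 and 53.9 CPM in the controls, and its groups overlapped. The eIF4E transporter gene eif4enif1, which is no 4E-BP, was at 6.12 and 8.17 CPM in NRas+ and at 13.3 and 6.28 CPM in the controls. All 4 4E-BP genes thus had a positive log2 fold change, which held for 3 of 4 without TMM scaling and without NRas+ 1.

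Of the cap-binding proteins, all 6 eIF4E genes tested had a positive log2 fold change with a median of 0.54, against -0.04 over all genes. In 4 of the 6, both NRas+ libraries were above both controls in TMM-scaled CPM (20.5% of all genes). At least for eif4eb, eif4e1c and EIF4E3 this rested on the scaling, since per total count control 2 lay above NRas+ 1. Their counts were 478, 629 and 635 in control 2 and 447, 649 and 670 in NRas+ 1. The totals were 38915102 in control 2 and 42365244 in NRas+ 1. None of the 6 had an unadjusted p under 0.05 in edgeR or a call with DESeq2. Without TMM scaling, which lowered the median over all genes by 0.35, 4 of 6 were positive, as also without control 2 and without NRas+ 2. The gene eif4e1c (ENSDARG00000012274) had 17.8 and 18.9 CPM in NRas+ and 10.7 and 11.5 CPM in the controls, a log2 fold change of 0.72 with a standard error of 0.44 (edgeR, adjusted p = 0.576). The gene eif4eb had 12.3 and 14.2 CPM in NRas+ and 6.74 and 8.75 CPM in the controls. EIF4E2, a cap-binding protein known in mammals as a repressor, had 30.7 and 29.2 CPM in NRas+ and 26 and 15.5 CPM in the controls, and EIF4E3 had 18.4 and 20.2 CPM in NRas+ and 15.2 and 11.6 CPM in the controls. EIF4E itself (9.79 and 12.9 CPM in NRas+, 13.8 and 8.69 CPM in the controls) and eif4e2rs1 (17.8 and 20.9 CPM in NRas+, 20.7 and 17.6 CPM in the controls) overlapped between groups. The egg form EIF4E1B had at most 10 counts in any library and was not tested. The ratio of 4E-BP to eIF4E counts was 5.76 and 4.65 in NRas+ and 3.76 and 5.08 in the controls, and overlapped between groups (exact permutation p = 0.667, two-sided).

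The genes of the scaffold eIF4G differed among themselves. The gene EIF4G2 (ENSDARG00000057167), which in mammals encodes a scaffold without the eIF4E-binding part, had 152 and 105 CPM in NRas+, against 69.2 and 79.2 CPM in the controls, a log2 fold change of 0.79 with a standard error of 0.38 (edgeR, unadjusted p = 0.0491, adjusted p = 0.441). With library size alone in place of TMM its log2 fold change was 0.42. Its groups then overlapped, with 4006 counts in NRas+ 2 and 4328 in control 2, from a smaller total. The paralog of the same name (ENSDARG00000020377) had 14.7 and 22.7 CPM in NRas+ and 27.1 and 18.9 CPM in the controls. The 2 EIF4G3 genes had log2 fold changes of opposite sign. ENSDARG00000077215 had 4.31 and 8.25 CPM in NRas+, against 14.9 and 13.7 CPM in the controls, a log2 fold change of -1.18 with a standard error of 0.51 (edgeR, unadjusted p = 0.0325, adjusted p = 0.385). ENSDARG00000074331 had 10.4 and 10.3 CPM in NRas+, against 3.61 and 8.55 CPM in the controls, a log2 fold change of 0.69 with a standard error of 0.55 (edgeR, adjusted p = 0.68). ENSDARG00000074331 took 70.7% and 55.4% of the counts of the pair in NRas+, against 19.5% and 38.5% in the controls, a difference larger than the spread within either group (exact permutation p = 0.333, the smallest possible). Counts of the pair were few, between 497 and 1213 per library. The main scaffold gene EIF4G1 was at 179 and 113 CPM in NRas+ and at 253 and 150 CPM in the controls.

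**Figure D3:**
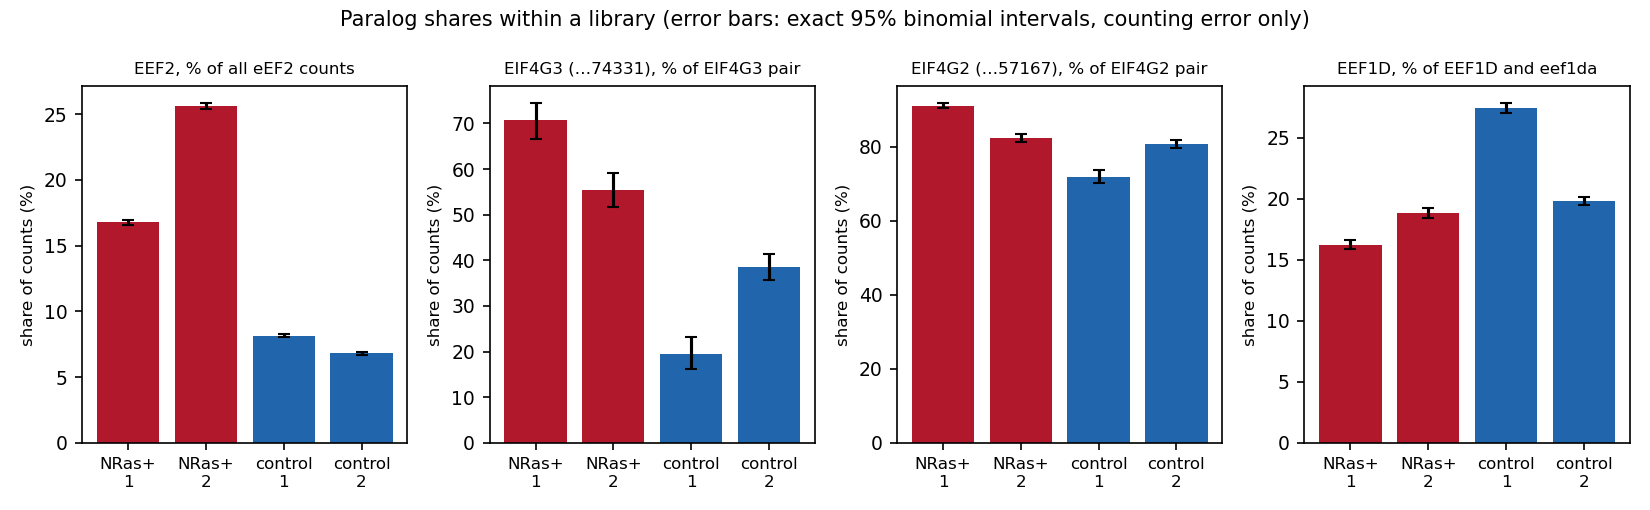
Share of counts (y axis, %, from 0) that 1 gene takes within its paralog group in each library, NRas+ in red and control in blue; error bars are exact 95% binomial intervals and cover counting error only. EEF2 takes 16.8% and 25.6% of eEF2 counts in NRas+ and 8.15% and 6.81% in controls, and in all 4 panels the groups do not overlap. For EEF1D (18.8% in NRas+ 2, 19.8% in control 2) and EIF4G2 (82.3% and 80.7%) they lie close. The panels are a selection. Among the pairs not shown, the groups overlap in EIF2S1, EIF3H, eif4ba, eif4a1a, eif1axa and eif4ebp3, but not in EIF3J and EIF3E.

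In TMM-scaled CPM, the helicase genes eif4a1a and eif4a1b were close within groups. The gene eif4a1b (ENSDARG00000003032) had 293 and 295 CPM in NRas+ and 211 and 219 CPM in the controls, and eif4a1a (ENSDARG00000092115) had 68.1 and 66.7 CPM in NRas+ and 50.9 and 48.8 CPM in the controls. Their log2 fold changes were 0.45 and 0.43 (adjusted p = 0.71 and 0.7 from edgeR). Raw counts of both were highest in control 2, at 11946 for eif4a1b and 2667 for eif4a1a, from a smaller total than in NRas+. Without TMM scaling their groups thus overlapped. The share of eif4a1a in the counts of the pair was 18.9% and 18.4% in NRas+ and 19.4% and 18.3% in the controls. EIF4A3, the helicase of the exon junction complex, had 62.2 and 77.5 CPM in NRas+ and 82.9 and 68.7 CPM in the controls, and overlapped between groups.

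The lowest unadjusted p of all 75 genes belonged to eif5b (ENSDARG00000016548), the GTPase that joins the ribosomal subunits. It had 210 and 135 CPM in NRas+, against 820 and 189 CPM in the controls, a log2 fold change of -1.55 with a standard error of 0.54 (edgeR, unadjusted p = 0.00991, adjusted p = 0.264). In TMM-scaled CPM the groups overlapped, and the value rested on control 1. Without control 1 the log2 fold change was -0.12, and without control 2 it was -2.22. Raw counts were 7653 and 5147 in NRas+ and 22047 and 10346 in the controls, which had smaller totals. Per total count the groups thus did not overlap. EIF5, which triggers GTP hydrolysis by eIF2, had 155 and 99.6 CPM in NRas+ and 192 and 103 CPM in the controls.

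The factor eIF3, a complex of many subunits that holds the small ribosomal subunit ready, had 16 of 17 genes tested, of which 4 had a positive and 12 a negative log2 fold change, from -0.91 to 0.73, with a median of -0.23. None had an unadjusted p under 0.05 in edgeR. The core subunit EIF3A had 311 and 278 CPM in NRas+ and 422 and 387 CPM in the controls, and EIF3B (ENSDARG00000059654) 262 and 250 CPM in NRas+ and 272 and 231 CPM in the controls. EIF3M (ENSDARG00000013931) had 269 and 251 CPM in NRas+ and 567 and 314 CPM in the controls, a log2 fold change of -0.76 with a standard error of 0.43 (edgeR, adjusted p = 0.533). With TMM scaling and without control 1 the median of the group was 0.05, so that its sign rests on that library and on the scaling. With library size alone and all libraries it was -0.52, with 14 genes negative, against -0.40 over all genes. Of all raw counts, eIF3 took 0.204% and 0.201% in NRas+ and 0.288% and 0.328% in the controls. As a share of all translation factor counts, eIF3 took 11% and 11.3% in NRas+ and 11.1% and 11.5% in the controls.

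For eIF2, which carries the initiator tRNA, the smallest adjusted p was 0.585 from edgeR, that of EIF2S1 (ENSDARG00000005827), with 26.2 and 27.6 CPM in NRas+ and 41.3 and 40.9 CPM in the controls. The other EIF2S1 gene (ENSDARG00000052178) had 127 and 144 CPM in NRas+ and 212 and 117 CPM in the controls. The exchange factor eIF2B, which reloads eIF2 with GTP, had 4 of its 5 genes at a positive log2 fold change. Its subunit EIF2B4 (ENSDARG00000014004) had 24.0 and 34.6 CPM in NRas+ and 17.3 and 17.9 CPM in the controls (edgeR, log2 fold change 0.74 with a standard error of 0.41, adjusted p = 0.525), and EIF2B3 (ENSDARG00000018106) had 10.7 and 10.5 CPM in NRas+ and 4.21 and 7.27 CPM in the controls (adjusted p = 0.597 from edgeR). The remaining roles, namely eIF1 and eIF1A, eIF4B and eIF4H, eIF5A, eIF6 and the methyltransferases, had 14 genes, of which 13 were tested, with log2 fold changes between -0.57 and 0.48 and no unadjusted p under 0.05. Among them eif5a, the factor that carries hypusine, had 552 and 418 CPM in NRas+ and 400 and 389 CPM in the controls.

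Ribosomal protein genes showed another pattern. They were set beside the factors because in mammals the TOR kinase controls their translation and that of elongation factors such as eEF1A and eEF2. This list was chosen after the counts were seen. Of 76 cytosolic ribosomal protein genes, 75 had a negative log2 fold change with a median of -1.39, against 0.02 for the translation factors. The 13 elongation factor genes tested, taken alone, had a median of -0.27 with 9 negative, and the 60 initiation factor genes a median of 0.04 with 27 negative. Of the ribosomal protein genes, 60 had an unadjusted p under 0.05, all lower, where 6.11% of all genes did. None passed an adjusted p of 0.05 in edgeR, the smallest being 0.0798, whereas 32 were lower with DESeq2. Ribosomal proteins took 3.21% and 2.55% of the counts in NRas+, against 8.45% and 6.29% in the controls. Translation factors, for comparison, took 1.87% and 1.78% in NRas+, against 2.59% and 2.86% in the controls. The count of translation factors per count of ribosomal proteins was 0.582 and 0.697 in NRas+, against 0.307 and 0.454 in the controls, with means of 0.639 ± 0.0815 and 0.381 ± 0.104 (SD, n = 2 each). This ratio does not depend on scaling, and its groups did not overlap (exact permutation p = 0.333, two-sided, the smallest possible). Without control 1 the ribosomal median was -0.67 and that of the factors 0.15, and without control 2 they were -1.85 and -0.17.

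**Figure D4:**
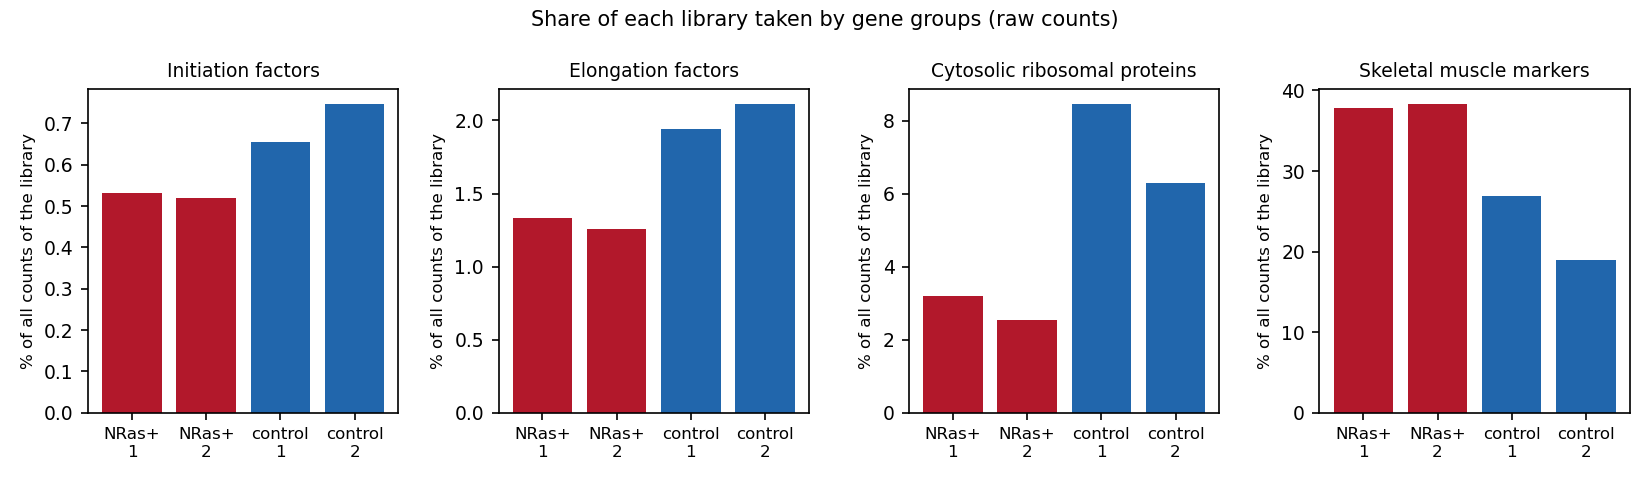
Percentage of all raw counts of a library (y axis, each panel from 0 on its own scale) taken by the 62 initiation factor genes, the 14 elongation factor genes, the 76 ribosomal protein genes and the 34 skeletal muscle markers, NRas+ in red and control in blue. Ribosomal proteins take 3.21% and 2.55% in NRas+ and 8.45% and 6.29% in controls, and muscle markers 37.9% and 38.3% in NRas+ and 26.9% and 18.9% in controls.

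Of the other genes of the pathway, none of the 60 tested in 6 lists passed an adjusted p of 0.05 in edgeR or with DESeq2, and 6 had an unadjusted p under 0.05 in edgeR, all of them higher, where 11.3% of all genes had one and 5.16% were higher. Termination and recycling factors had 8 of 9 genes with a positive log2 fold change, led by GTPBP1 (ENSDARG00000042900), a GTPase, with 9.98 and 5.13 CPM in NRas+ and 1.38 and 2.76 CPM in the controls, and by the rescue factor HBS1L with 20.2 and 17.5 CPM in NRas+ and 7.82 and 10.1 CPM in the controls (adjusted p = 0.335 and 0.378 from edgeR). The enzymes for hypusine and diphthamide, the modified residues of eIF5A and eEF2, had 4 positive and 5 negative values. Their leading genes were DPH6, for the last step of diphthamide, with 23.8 and 15.4 CPM in NRas+ and 3.65 and 9.02 CPM in the controls, and DHPS, deoxyhypusine synthase, with 24.5 and 12.9 CPM in NRas+ and 3.83 and 8.97 CPM in the controls (adjusted p = 0.226 and 0.268 from edgeR). Among TOR complex 1 genes and its S6 kinases, rhebl1, a small GTPase of the Rheb family, had 31 and 28.4 CPM in NRas+ and 8.0 and 18.1 CPM in the controls, and the Rheb inhibitor TSC1 (ENSDARG00000026048) had 25.2 and 15.5 CPM in NRas+ and 13.1 and 9.15 CPM in the controls (adjusted p = 0.319 and 0.484 from edgeR). Of the eIF4E kinases, MKNK2 (ENSDARG00000011373) had 3.37 and 4.44 CPM in NRas+ and 9.86 and 6.55 CPM in the controls, while mknk1 had 11.6 and 7.83 CPM in NRas+ and 3.50 and 7.23 CPM in the controls (adjusted p = 0.552 and 0.641 from edgeR). Poly(A)-binding proteins and their partners had 2 positive and 4 negative values, led by PABPN1 with 79.0 and 58.0 CPM in NRas+ and 129 and 96.0 CPM in the controls and by PAIP2B with 20.0 and 13.6 CPM in NRas+ and 33.5 and 24.3 CPM in the controls (adjusted p = 0.498 and 0.511 from edgeR). Mitochondrial factors had 7 positive and 2 negative values, led by the recycling factor MRRF with 17.9 and 15.5 CPM in NRas+ and 4.21 and 10.3 CPM in the controls and by mtrf1 with 13 and 8.86 CPM in NRas+ and 4.80 and 5.67 CPM in the controls (adjusted p = 0.395 and 0.489 from edgeR).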

How the data were processed

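The authors mapped reads to danRer10 with STAR 2.4.2a, used featureCounts for Ensembl genes and deposited raw counts. The paper names standard parameters, which ignore strand, while the labels name a reverse strand, and which setting was used was not settled. Without strand, overlapping genes cannot be told apart. cDNA was amplified with SMART-seq v4, so counts are not independent molecules. Symbols came from a name table that paired 26121 of 31952 genes, often as the human symbol, so that paralogs share names. The members and lists were chosen with earlier results of these data known.

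Counts were filtered with filterByExpr (minimum count 10), scaled by TMM and tested with edgeR 4.0.16 in R 4.3.3 (quasi-likelihood test, Benjamini-Hochberg over 20099 genes, no block). DESeq2 1.42.0 was an alternative, on the same filtered genes. Both tests were checked on simulated data, in which DESeq2 recovered more changed genes than edgeR and made more false calls. Other alternatives were RLE factors, library size alone, TMM without muscle markers, other filters, the legacy fit, the replicate number as a block and leaving out each library. Shares and ratios of raw counts were compared with exact permutation tests, with exact (Clopper-Pearson) 95% intervals for counting error only. Named genes were those past the threshold, the 6 with the smallest p in each direction, the 6 with the highest CPM, all eEF1A, eEF2, eIF4E and 4E-BP genes, and 2 per other list. Other genes given as examples were chosen after their values were seen. No levels per length are given, since transcript lengths were not used here, and CPM is therefore compared only within a gene.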

Additional observations from a re-analysis of the deposited data

How the results depend on the processing

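With 2 libraries a group, single libraries decided much. With 1 library left out, calls at an adjusted p under 0.05 ranged from 0 to 0 higher and from 0 to 2 lower (eif5b and EEF1D, without control 2), and genes at an unadjusted p under 0.05 from 0 to 5 higher (4 with all libraries) and from 0 to 9 lower (3 with all libraries). The median log2 fold change ranged from -0.17 to 0.15, and the log2 ratio of summed CPM, -0.30 with all libraries, from -0.52 to 0.0066. DESeq2 called 1 gene higher, EEF2 (ENSDARG00000035256), and the number of genes over the whole table was 205 higher and 178 lower, against 26 and 8 with edgeR. With library size alone in place of TMM, the median over all genes shifted by -0.35, the median of the translation factors was -0.31, and 1 and 13 genes had an unadjusted p under 0.05, higher and lower. The share of all genes at that threshold was not counted with this scaling, so these counts have no background. The log2 fold change then turned to -0.038 for eif4ebp3, -0.25 for eef1a2, -0.24 for EIF4E and -0.30 for eif4e2rs1. The cause was not tested. RLE factors, TMM without muscle markers, no filter and the legacy fit turned no sign among the 42 genes named by rule and tested, nor did the filter of at least 10 counts in every library among the 40 it kept (without eef1a1l3 and eef1a2), and these made no call of a translation factor.

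With the replicate number as a block, 0 translation factors passed, and 4 were higher and 4 lower at an unadjusted p under 0.05, with a median log2 fold change of 0.03. The share of all genes at that unadjusted p was not counted with the block. Each experiment held both conditions per the study's methods, but no source says that the numbers mark the same experiment, and across genes, the deviations of same-numbered libraries had a correlation of 0.149. Over all genes the block gave 7 calls higher and 0 lower.

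Among the genes named by rule, these log2 fold changes changed sign with 1 library left out: eef1da (-0.74 to 0.032), EEF1B2 (-0.53 to 0.15), eif4ebp3 (-0.020 to 0.65), EEF1A1 (-0.071 to 1.26 for ENSDARG00000069951 and -0.93 to 0.28 for ENSDARG00000039502), eif4enif1 (-0.87 to 0.20), eef2a.1 (-0.83 to 0.17), eef1a2 (-0.39 to 2.83), EIF4E (-0.26 to 0.40) and eif4e2rs1 (-0.076 to 0.15). Of the genes given as examples, EIF2S1 (ENSDARG00000052178, -0.62 to 0.22), EIF5 (-0.57 to 0.32), EIF4A3 (-0.25 to 0.039) and EIF3B (ENSDARG00000059654, -0.068 to 0.16) did so too. The share of eEF1A counts from eef1a1l1 differed by -0.10 to 0.04 percentage points. The comparison of EEF2 shares was added after the counts were seen.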
